A study of Arabidopsis thaliana with 24 samples.

Results

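A set of 139 genes was at least 60% lower in ABA-treated than in mock-treated Arabidopsis thaliana leaves of every genotype studied, ABA being abscisic acid, the plant hormone of water deficit. The genes were chosen by their measured values. Levels are given as CPM, the expected count of a gene divided by the sum of its library and scaled to a sum of 1000000. A gene entered the set if its mean was at least 5 CPM over the 12 mock libraries and if, in each of the 4 genotypes, its mean ABA level was at most 0.4 of its mean mock level. Of 22279 genes in the deposited files, 9549 reached the level minimum and 139 (1.46% of these) met the whole rule. All 139 also passed the filter on low counts that left 13874 genes for testing. Since the fall with ABA chose these genes, its size is a description, and the calls of a test on it are printed only beside the share of all genes called.

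The 24 libraries came from leaves of 3-week-old plants painted for 4 h with 10 uM ABA or with a mock solution of water and DMSO, both with the wetting agent Silwet L-77, and each of 8 groups held 3 biological replicates. WT plants carried their own genes for H2A.Z, a histone variant found mostly at the start of genes. The other lines shared an h2a.z null background and expressed an altered HTA11, 1 of the H2A.Z genes: Delta28 lacks residues up to position 28, K>R 1-9 carries arginine in place of each of 9 tail lysines, and K>R 3 carries it only at the third of them (residue 13). Unaltered HTA11 was not put into the null background in any group, and effects of the tail and of the background cannot be told apart. The promoter that drives HTA11, and whether each line is 1 transformant, are not stated in the labels.

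As background, ABA is made when a plant loses water. It binds soluble receptors, which block PP2C phosphatases and so free SnRK2 kinases to phosphorylate channels and transcription factors. Stomata then close, stress proteins are made, and photosynthesis, chloroplast building and cell expansion slow down, in part because their nuclear genes are transcribed less. Most chloroplast proteins are encoded in the nucleus and imported.

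Library totals ran from 1565518 counts (WT mock replicate 2) to 15086279 (WT ABA replicate 3). In the targeted family, HTA9 lay between 301 and 436 CPM in the 6 WT libraries and between 53.7 and 109 CPM in the 18 mutant libraries, and HTA9 was thus lower in every mutant library. HTA11 itself, which is transgenic in the mutants, was at 393 to 914 CPM in the K>R 1-9 libraries. It was at 2.52 to 9.51 CPM in the Delta28 libraries and at 4.70 to 10.3 CPM in the WT libraries. Reads were counted at 3′ ends on deposited gene models that mostly lack an exon, and may miss part of the transcripts. Whether the Delta28 transgene was expressed above WT cannot be read from these counts. In K>R 3 the library labelled mock replicate 2 stood apart with 870.3 CPM of HTA11, a level within the K>R 1-9 range, against 11.4 and 38.4 CPM in the other K>R 3 mock libraries and 5.87 to 21.2 CPM in the K>R 3 ABA libraries. The mutant mock medians over all members and the counts in WT are therefore also given without that library and the shallow WT mock replicate 2. The tissue label was checked on 5 mesophyll markers present in the files, which summed to 5581 to 21622 CPM in mock and 993 to 7718 CPM in ABA libraries, and 2 of them, RCA and LHCB3, are members of the set. The 10 guard cell markers summed to 141 to 248 CPM in mock and 233 to 493 CPM in ABA libraries, and AT1G22690, whose promoter is used to mark guard cells, is a member. The 6 dividing cell markers stayed at or below 6.72 CPM in sum. The 7 root markers present in the files summed to 28.1 to 54.3 CPM in mock and 19.9 to 43.6 CPM in ABA libraries, and 4 of them had no count in any library. In whole leaves, fewer cells of a type and less RNA per cell cannot be told apart.

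The set as a whole took up 1.82% to 4.67% of all counts in the mock libraries and 0.383% to 1.83% in the ABA libraries. Each gene was expressed as a percentage of its own mean over the 12 mock libraries, and the median over the 139 genes was taken in each library. This median was 109, 127 and 129.6% in the WT mock libraries and 28.9, 21.2 and 48.3% in the WT ABA libraries. In Delta28 it was 131, 87.7 and 96.2% in mock and 23.2, 14.6 and 37.2% in ABA leaves. In K>R 1-9 it was 55.1, 93.9 and 77.9% in mock and 15.6, 16.8 and 17.0% in ABA leaves, and in K>R 3 102, 53.8 and 68.9% and 14.8, 10.3 and 20.0%. The ABA libraries thus lay below the mock libraries of their genotype in every case, and the highest ABA library was WT ABA replicate 3. The lowest mock libraries were K>R 3 replicate 2 and K>R 1-9 replicate 1.

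**Figure D1:**
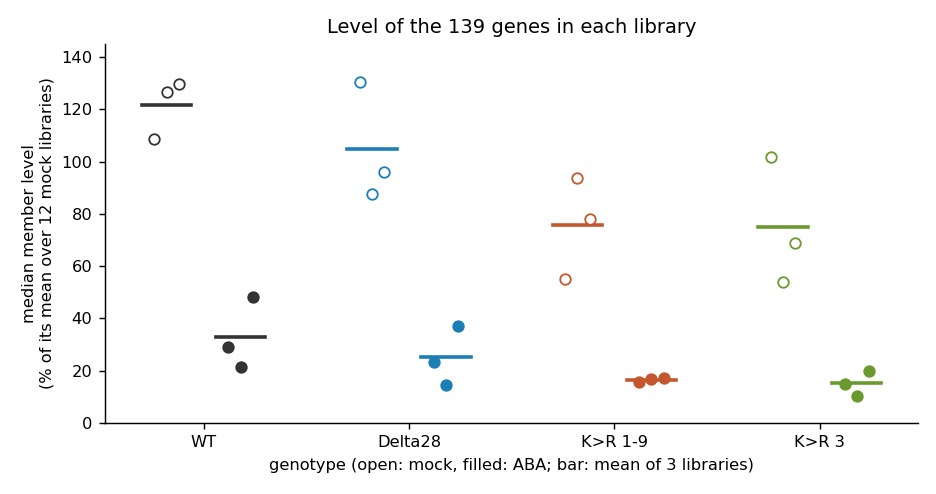
Median level of the 139 genes in each library, as a percentage of each gene's mean over the 12 mock libraries, with open points for mock, filled points for ABA and a bar for the mean of 3 libraries. The WT ABA points sit at 21.2% to 48.3% and the K>R 1-9 ABA points at 15.6% to 17.0%.

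The depth of the fall varied among the members, and its values are a description, because these ratios chose the genes. The median ABA to mock ratio was 0.275 in WT, 0.258 in Delta28, 0.235 in K>R 1-9 and 0.236 in K>R 3, where all genes at the level minimum had medians of 0.983, 0.920, 0.940 and 0.932. A ratio below 0.2 was reached by 32 members in WT, 37 in Delta28, 48 in K>R 1-9 and 50 in K>R 3. The share of all genes below 0.2 is not given, and no difference between genotypes is read from these ratios. Every ABA library lay below every mock library for 124 members in WT, 128 in Delta28, 116 in K>R 1-9 and 108 in K>R 3, and for 13.6%, 18.8%, 15.7% and 17.3% of all genes tested. This held in all 4 genotypes at once for 76 members, and for 2.96% of all genes tested. In the edgeR quasi-likelihood F test (Benjamini-Hochberg adjustment) the members called lower numbered 57 in WT (1.63% of all genes tested were called lower), 92 in Delta28 (5.56%), 84 in K>R 1-9 (3.58%) and 82 in K>R 3 (4.70%). Nothing is read from these counts, because the same libraries chose the genes. They also rested on single libraries: the WT count was 17, 24, 16 and 8 without WT mock replicates 2 and 3 and ABA replicates 1 and 2, and the Delta28 count 38, 44 and 36 without mock replicate 1 and ABA replicates 1 and 2. The K>R 1-9 count was 31, 29, 38 and 39 without mock replicate 2 and ABA replicates 1, 2 and 3, and the K>R 3 count 30 and 44 without mock replicate 1 and ABA replicate 2.

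By the annotation and textbook function, 43 of the 139 members belong to photosynthesis and plastid roles, 20 to the cell wall, leaf surface and growth, 11 to phenylpropanoid, amino acid and vitamin metabolism, 10 to receptors and kinases and 9 to transcription factors, and 46 had other or unknown roles. These roles were assigned after the values were known. The words chloroplast, plastid or thylakoid stood in the TAIR10.1 annotation of 49 members (35.3%) and of 1764 genes at the level minimum (18.5%).

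**Figure D2:**
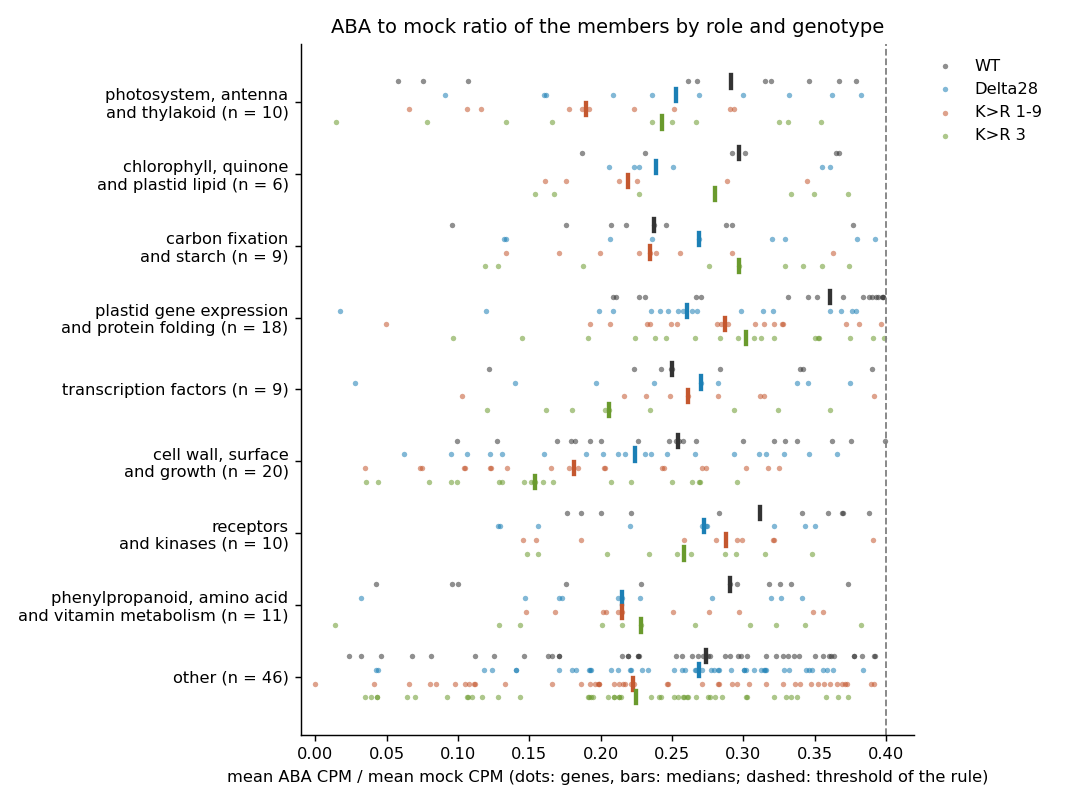
Ratio of mean ABA to mean mock CPM for each member (points) by role and genotype, with medians as bars and the threshold of 0.4 as a dashed line. The lowest medians are those of the cell wall, surface and growth genes in K>R 3 (0.154) and K>R 1-9 (0.181), and the highest that of the plastid gene expression and folding genes in WT (0.361). The ratios chose the genes, and no difference between genotypes is read from them.

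The photosystem, antenna and thylakoid group held 10 members. LHCB3, a light-harvesting protein of photosystem II, was the most abundant gene of the set, with 16360, 12936 and 12443 CPM in WT mock and 4347, 2502 and 6309 CPM in WT ABA leaves. In K>R 3 it was at 8636, 8372 and 4459 CPM in mock and 945, 738 and 3376 CPM in ABA leaves, so that its 3 K>R 3 mock libraries lay below all 3 WT mock libraries. The Delta28 ratio was 0.269 and the K>R 1-9 ratio 0.223, with no overlap of ABA and mock libraries in either. LHCB2.3 and LHCB2.2, near-identical antenna genes between which reads may be divided, fell further. LHCB2.3 went from 2271, 1153 and 1261 to 134, 75.3 and 291 CPM in WT and from 562, 319.9 and 88.8 to 17.7, 18.4 and 39.9 CPM in K>R 3. LHCB2.2, on the minus strand, had ratios of 0.0575, 0.160, 0.106 and 0.166 in WT, Delta28, K>R 1-9 and K>R 3. The other members of this group were PSAF, a subunit of photosystem I, PSB28, an assembly factor of photosystem II, PnsL3, PnsL4 and CRR7 of the chloroplast NDH complex, the thylakoid calcium-sensing protein CaS, and ELIP2, an early light-induced protein that protects against excess light.

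Among 6 members of chlorophyll, quinone and plastid lipid synthesis, AT1G74470, the geranylgeranyl reductase that makes the tail of chlorophyll, had a nearly constant ratio of 0.345 to 0.373 over the 4 genotypes. Its level was 4448, 4113 and 3861 CPM in WT mock and 1446, 929.6 and 2159 CPM in WT ABA leaves, without overlap. In K>R 3 it was 2702, 1743 and 1402 CPM in mock and 418, 342 and 1421 CPM in ABA leaves, where the third ABA library reached above the third mock library. GUN5, the subunit of magnesium chelatase that binds the porphyrin, had ratios of 0.187, 0.251, 0.176 and 0.334 in WT, Delta28, K>R 1-9 and K>R 3. POR C, which reduces protochlorophyllide in the light, FAD5, a desaturase of plastid lipids, and AAE14, an enzyme of phylloquinone synthesis, completed this group together with the fibrillin AT5G09820.

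Carbon fixation and starch contributed 9 members. RCA, which reactivates Rubisco, had 1177, 2652 and 1129 CPM in WT mock and 320.0, 391 and 466 CPM in WT ABA leaves, and 931, 406 and 589 CPM in K>R 3 mock and 146, 195 and 379 CPM in K>R 3 ABA leaves. No ABA library of RCA reached a mock library of its genotype in these 2 lines. The carbonic anhydrase CA2 spread over 50.9, 7.83 and 222 CPM in K>R 3 ABA leaves and 609.6, 259 and 731 CPM in WT ABA leaves, so that every K>R 3 ABA library was below every WT ABA library. The Rubisco small subunit RBCS1B, which has near-identical copies, had ratios of 0.246 in WT and 0.133, 0.133 and 0.128 in Delta28, K>R 1-9 and K>R 3. SBPASE, a Calvin cycle phosphatase, the aldolases FBA1, FBA2 and FBA5, the dehydrogenase subunit GAPA-2 and the starch synthase GBSS1 made up the rest, and 6 of the 9 lie on the minus strand, where the deposited gene models hold only part of the reads.

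Plastid gene expression and protein folding held 18 members, more than any other plastid role. CPN60A, the alpha subunit of the chloroplast chaperonin that folds Rubisco, was at 473, 372 and 539.7 CPM in WT mock and 162, 99.4 and 289.7 CPM in WT ABA leaves, a ratio of 0.398, close to the threshold. In Delta28 it was at 583, 531 and 361 CPM in mock and 92.8, 89.9 and 197 CPM in ABA leaves. The ABA libraries were below the mock libraries in both genotypes. Its partner subunits CPN60B and Cpn60beta2 were members too, with WT ratios of 0.270 and 0.227. The group also held emb2726 (the elongation factor Ts of plastids), the RNA helicase emb1138, the RNA-binding RBP31, the nuclease RIF10, MRL1, which stabilises the Rubisco large subunit transcript, 4 genes annotated as ribosomal proteins or as ribosomal protein S6-like, and TOC33, a receptor for protein import. The median ratios of this group were 0.361, 0.261, 0.287 and 0.302 in WT, Delta28, K>R 1-9 and K>R 3. No difference between genotypes is read from these, because the ratios chose the genes.

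All 9 transcription factors were of low or middle level, from 7.34 to 59.1 CPM in mean mock leaves. BBX16, a B-box protein of the CONSTANS-like family, had 77.4, 119 and 104 CPM in WT mock and 18.8, 19.4 and 29.0 CPM in WT ABA leaves. In K>R 1-9 it had 28.9, 33.0 and 38.0 CPM in mock and 9.63, 9.46 and 5.75 CPM in ABA leaves, so that the groups did not overlap within either genotype or between the genotypes within a treatment. HYH, the homologue of the light regulator HY5, GNC, a GATA factor that promotes greening, and PIF7, a phytochrome-interacting factor of shade growth, had ratios between 0.197 (PIF7 in Delta28) and 0.390 (HYH in WT). PRE1 and BEE1, helix-loop-helix proteins of brassinosteroid-driven growth, were near the level minimum. PRE1 had 17.6, 7.15 and 8.01 CPM in Delta28 mock and 0.913, 0 and 0 CPM in Delta28 ABA leaves. BEE1 rested on 1 library in WT, with 1.62, 2.56 and 25.9 CPM in mock and 1.25, 0.864 and 5.17 CPM in ABA leaves, and without WT mock replicate 3 its log2 fold change turned from -2.01 to 0.38.

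The cell wall, surface and growth group of 20 had median ratios of 0.254 in WT, 0.224 in Delta28, 0.181 in K>R 1-9 and 0.154 in K>R 3. These ratios chose the genes, and no difference between genotypes is read from them. XTH6, an enzyme that cuts and joins xyloglucan, was at 297, 156 and 232 CPM in WT mock and 84.5, 13.4 and 75.5 CPM in WT ABA leaves. In K>R 3 it was at 175, 495 and 94.5 CPM in mock and 40.9, 5.29 and 53.9 CPM in ABA leaves, and the ABA libraries stayed below the mock libraries in both. AT1G22690, the guard cell marker of the gibberellin-regulated family, had a WT ratio of 0.338 and ratios of 0.0620, 0.0744 and 0.0441 in Delta28, K>R 1-9 and K>R 3. Its WT ABA libraries held 11.2, 3.99 and 5.06 CPM and its K>R 3 ABA libraries 1.45, 0.701 and 1.38 CPM, without overlap, whereas their mock libraries overlapped at 24.9, 12.8 and 22.3 and 21.8, 36.8 and 21.7 CPM. AT1G22690 is described because it is a listed guard cell marker, and the list as a whole rose in sum, as given above. Of its 10 genes, the edgeR test called 3 higher and 0 lower in WT, 2 and 1 in Delta28, 1 and 2 in K>R 1-9 and 3 and 1 in K>R 3. Also in this group were the cell wall protein DGR2, GASA4, HLS1 of the apical hook, the galactosidase BGAL3, 3 pectin lyase-like genes, 2 GDSL lipases, 2 lipid transfer-like genes and PDLP2 of plasmodesmata.

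The metabolic group of 11 combined genes of several pathways. MS2, a methionine synthase, was at 903, 1535 and 3926 CPM in WT mock and 645, 384 and 819 CPM in WT ABA leaves. ESM1, which steers glucosinolate breakdown, was at 2751, 1254 and 2871 CPM in WT mock and 355, 661 and 1018 CPM in WT ABA leaves, and at 1133, 189.8 and 343 CPM in Delta28 mock and 109, 53.1 and 82.1 CPM in Delta28 ABA leaves. The ABA libraries of both genes lay below the WT mock libraries. For ESM1 every Delta28 library also lay below every WT library of its treatment. RSR4, a vitamin B6 synthase, DFD of folate, VTC4 of ascorbate and EDA9 of serine synthesis, PAL2 at the entry of the phenylpropanoid pathway, ATCAD4 of lignin and FLS1 of flavonol synthesis were other members here.

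The 10 receptors and kinases included BAM2, a receptor kinase related to CLAVATA1, at 157, 126 and 197 CPM in WT mock and 48.2, 31.6 and 83.7 CPM in WT ABA leaves. The cysteine-rich kinases CRK21, CRK22 and CRK23 are neighbours on chromosome 4, and neighbours or near-copies may share reads. In all, 4 pairs of members were adjacent in the TAIR10.1 gene order, the others being PDLP2 with TPR4 and GNC with AT5G56850.

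Of the genes with other or unknown roles, the transporter AT5G62730 had the lowest ratio that held in all genotypes, at most 0.0803. It went from 13.0, 27.5 and 21.2 to 1.25, 0 and 1.59 CPM in WT and from 22.5, 21.0 and 19.1 to 1.45, 0 and 0.700 CPM in K>R 3. Its second ABA library was at 0 in every genotype and no ABA library overlapped a mock library. The thionin AT1G66100, the cysteine proteinase AT2G27420 and the uncharacterised AT1G15830 had ratios of at most 0.183 throughout, as did the GDSL lipase AT1G33811 and the pectin lyase-like AT5G63180 of the cell wall group. AT2G27420 had no count in the 3 K>R 1-9 ABA libraries, which is, with 3 counts over the group as the floor, at least 31.8-fold lower than its 3.58 CPM in mock. Its WT mock libraries were spread over 2.43, 40.2 and 14.2 CPM.

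**Figure D3:**
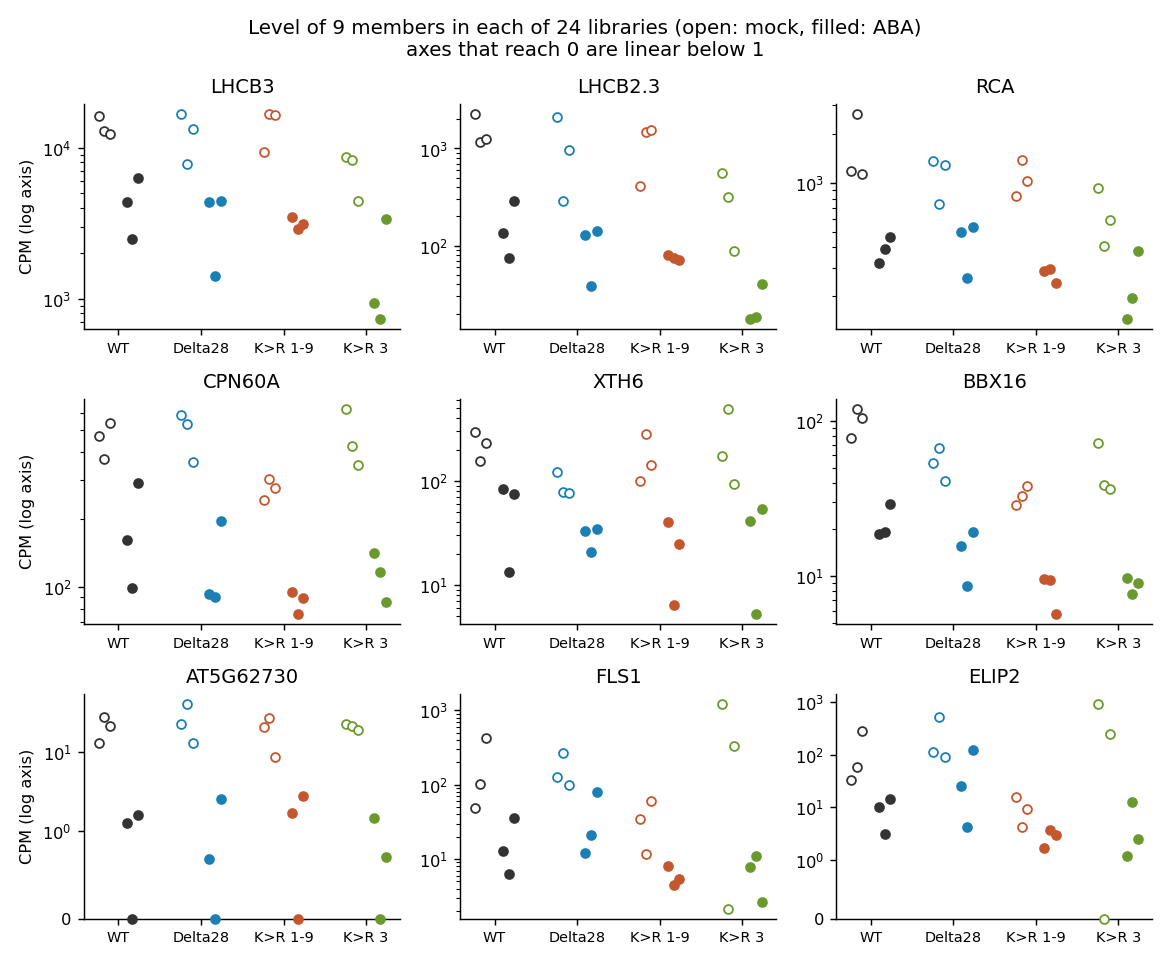
CPM of 9 members in each library on a log axis, with open points for mock and filled points for ABA leaves. LHCB3, RCA, CPN60A and BBX16 keep mock and ABA libraries apart in WT, as do FLS1 and ELIP2. Within the 3 K>R 3 mock libraries FLS1 and ELIP2 span 2.16 to 1228 CPM and 0 to 902 CPM.

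The mock levels of the members, which entered the rule, were spread widely. Their median coefficient of variation over the 12 mock libraries was 48.6%, against 29.9% over all genes at the level minimum, and it was above 100% for 10 members (7.19%, against 1.17%). This spread is pooled over 4 genotypes whose mock levels differ and is not independent of the choice of genes. FLS1, the flavonol synthase, stood at 49.0, 101 and 426 CPM in WT mock and 1228, 2.16 and 336 CPM in K>R 3 mock leaves. ELIP2 stood at 32.4, 57.5 and 280.1 CPM in WT mock and 902, 0 and 246 CPM in K>R 3 mock leaves. Both were highest in K>R 3 mock replicate 1 and lowest in K>R 3 mock replicate 2, the library with high HTA11. In K>R 3 ABA leaves they were at 7.75, 11.2 and 2.65 and 1.21, 12.9 and 2.57 CPM, so that for both genes all 3 ABA libraries lay above mock replicate 2 and below the other mock libraries. K>R 3 mock replicate 2 was the lowest mock library for 48 members and K>R 1-9 mock replicate 1 for 34, while Delta28 mock replicate 1 was the highest for 35 and WT mock replicate 2 for 28.

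The mutants were next compared with WT within each treatment, a contrast that the rule did not use, although the same libraries entered it. The comparison is therefore not free of the choice of genes. The rule favours high mock and low ABA levels in WT, as in each mutant. WT removed the most genes: 75 of 214 chosen without it missed the threshold there, against 32 of 171 in Delta28, 27 of 165 in K>R 1-9 and 43 of 183 in K>R 3. How far this moves the differences was not tested. The members were lower than WT in both lysine lines, by a median log2 difference of -0.57 in mock and -0.87 in ABA leaves of K>R 1-9 and of -0.67 and -0.86 in K>R 3. The medians of all genes tested were -0.01, -0.02, 0.01 and 0.01 in these 4 comparisons. In Delta28 the member medians were -0.14 in mock and -0.21 in ABA leaves. In K>R 1-9, 116 of 139 members had a negative difference in mock (83.5%, against 50.6% of all genes tested) and 121 in ABA leaves (87.1%, against 51.4%). In K>R 3, 110 were negative in mock (79.1%, against 49.1%) and 121 in ABA leaves (87.1%, against 49.2%). In Delta28, 84 were negative in mock (60.4%, against 47.6%) and 92 in ABA leaves (66.2%, against 48.6%). The 6 comparisons share the 3 WT mock or the 3 WT ABA libraries and the genes are not independent, so these shares carry no p-value. Without WT ABA replicate 3, the highest ABA library, the ABA medians were -0.36 in K>R 1-9, -0.43 in K>R 3 and 0.22 in Delta28, where the sign turned. Without the third ABA library of the mutant itself they were -1.36 in K>R 3 and -0.59 in Delta28. The Delta28 mock median was -0.37 without Delta28 mock replicate 1 and -0.017 without Delta28 mock replicate 2, and without K>R 3 mock replicate 1 the K>R 3 mock median was -1.02. Once the second mock library of both WT and K>R 3 was left out, the mock medians were -0.54 in K>R 3, -0.53 in K>R 1-9 and -0.08 in Delta28. With CPM by library sum in place of TMM scaling, which moved the median of all genes to -0.15 in mock and -0.19 in ABA leaves of K>R 1-9 and to -0.12 in ABA leaves of Delta28, the member medians in these were -0.71, -1.04 and -0.34.

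**Figure D4:**
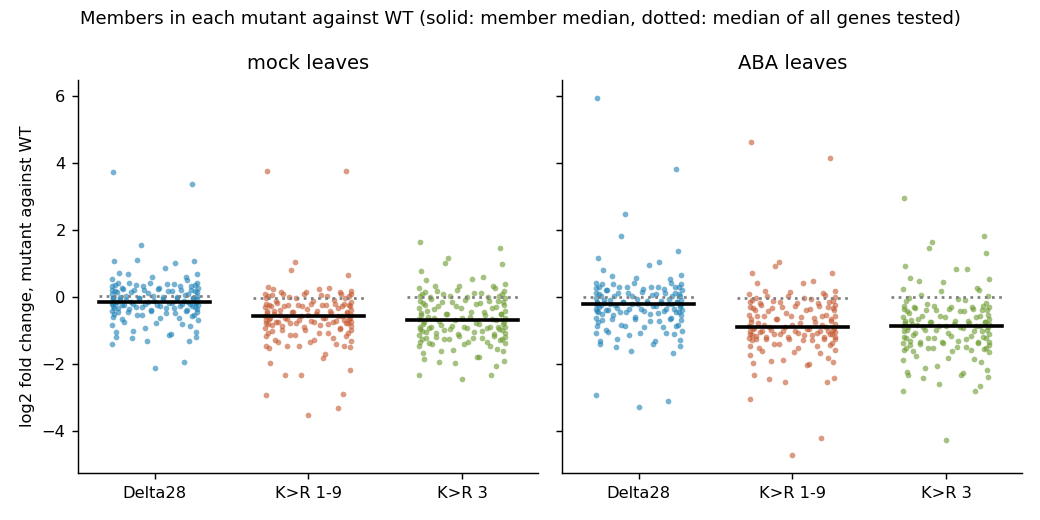
Log2 fold change of each member in Delta28, K>R 1-9 and K>R 3 against WT, in mock and ABA leaves, with the member median as a solid line and the median of all genes tested as a dotted line. The member medians are -0.14, -0.57 and -0.67 in mock and -0.21, -0.87 and -0.86 in ABA leaves.

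Single members mostly did not pass the test. BBX16 was the only member called in any of the 6 comparisons. It was lower in K>R 1-9 than in WT mock leaves, at the levels given above, with a log2 fold change of -1.44 (SE 0.29) and adjusted p = 0.0386 in the edgeR quasi-likelihood F test (Benjamini-Hochberg adjustment), where 0.245% of all genes were called. This call did not hold without any 1 of the 3 WT mock, the 3 K>R 1-9 mock libraries or WT ABA replicate 1 (adjusted p up to 0.198 in the same edgeR test), and held in DESeq2 (adjusted p = 0.00117). The other BBX16 differences from WT were -1.26 (SE 0.30) in K>R 1-9 ABA, -1.03 (SE 0.29) in K>R 3 mock, -1.31 (SE 0.31) in K>R 3 ABA, -0.79 (SE 0.29) in Delta28 mock and -0.52 (SE 0.30) in Delta28 ABA leaves, with adjusted p from 0.103 to 0.693 in the edgeR quasi-likelihood F test (Benjamini-Hochberg adjustment).

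In the other 5 comparisons the edgeR quasi-likelihood F test (Benjamini-Hochberg adjustment) called 0 members. All genes called there made up 0.159% in Delta28 mock, 0.115% in Delta28 ABA, 0.101% in K>R 1-9 ABA and 0.00721% in each K>R 3 comparison. At an unadjusted p below 0.05 there were 7 members in Delta28 mock, 10 in Delta28 ABA, 28 in K>R 1-9 mock, 38 in K>R 1-9 ABA, 31 in K>R 3 mock and 38 in K>R 3 ABA leaves, against 8.88%, 8.04%, 14.4%, 11.4%, 12.9% and 8.64% of all genes. DESeq2 called 1, 2, 5, 4, 2 and 3 members in the same order, where it called 0.661%, 0.496%, 2.19%, 1.25%, 0.813% and 0.239% of the genes to which it gave an adjusted p. Of these calls 0, 1, 3, 3, 2 and 3 were lower than WT and the others higher. Without K>R 3 ABA replicate 3 edgeR called 13 members in K>R 3 ABA leaves. Without Delta28 ABA replicate 2 it called 1 in Delta28 ABA, and without K>R 1-9 ABA replicate 2 it called 1 in K>R 1-9 ABA leaves. The K>R 1-9 mock count was 2 without Delta28 ABA replicate 2 or without K>R 3 mock replicate 1.

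Complete separation from WT was more frequent than over all genes in K>R 1-9 and K>R 3 and not in Delta28. All 3 libraries lay below all 3 WT libraries for 47 members in K>R 1-9 mock leaves (33.8%, against 12.6% of all genes), 37 in K>R 1-9 ABA leaves (26.6%, against 16.5%), 55 in K>R 3 mock leaves (39.6%, against 9.90%) and 20 in K>R 3 ABA leaves (14.4%, against 7.37%). In Delta28 this was so for 12 members in mock (8.63%, against 10.1%) and 8 in ABA leaves (5.76%, against 12%). Beside these, the 5 mesophyll markers summed to 14745 to 20490 CPM in WT mock, 12118 to 20579 CPM in K>R 1-9 mock and 5581 to 10521 CPM in K>R 3 mock leaves. Most of these sums was the member LHCB3, at 12443 to 16360, 9373 to 16703 and 4459 to 8636 CPM, and the member RCA is in them too. The sums are therefore not a measure of mesophyll apart from the members, and the part of cell types in the result was not tested.

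By role, the K>R 3 mock leaves differed most from WT in carbon fixation and starch (median log2 difference -1.28, 9 of 9 members negative) and in the photosystem and antenna group (-1.10, 9 of 10), and least in the transcription factors (-0.25, 6 of 9). Over the 43 photosynthesis and plastid genes the median was -0.90 in K>R 3 mock, -0.57 in K>R 1-9 mock and -0.21 in Delta28 mock leaves, with 40, 39 and 30 members negative. Over the other 96 members it was -0.50, -0.53 and -0.11. In ABA leaves the 20 cell wall, surface and growth genes had a median of -1.36 in K>R 3, where 20 of 20 were negative, and -1.05 in K>R 1-9, where 18 of 20 were. Over all members the ABA medians shrank to -0.43 in K>R 3 and -0.36 in K>R 1-9 without WT ABA replicate 3. Medians by role are not given with a library left out or beside genes outside the set, and no ranking of roles is read from them.

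Few members lay wholly above WT. All 3 mutant libraries were above all 3 WT libraries for 4 members in Delta28 mock leaves (CRK23, AT1G76530, TPD1 and AT5G66740, named after their values were seen) and for 2 in Delta28 ABA leaves, K>R 1-9 mock and K>R 1-9 ABA leaves, against 6.71%, 3.07%, 6.01% and 4.19% of all genes. The K>R 3 counts were 2 in mock and 1 in ABA leaves, against 12.8% and 4.76%. The pair in both Delta28 ABA and the K>R 1-9 comparisons was CRK23, a cysteine-rich receptor kinase, and AT1G76530, annotated as an auxin efflux carrier family protein. CRK23 had 2.03, 0 and 0.469 CPM in WT mock, 8.227, 15.05 and 5.604 CPM in Delta28 mock, 9.43, 8.40 and 19.1 CPM in K>R 1-9 mock and 0.368, 0.308 and 5.50 CPM in K>R 3 mock leaves. AT1G76530 had 1.42, 1.28 and 0.281 CPM in WT mock, 15.34, 6.385 and 11.01 CPM in Delta28 mock, 8.40, 6.51 and 17.9 CPM in K>R 1-9 mock and 1.11, 0 and 1.07 CPM in K>R 3 mock leaves. Both reached the minimum of 5 CPM through Delta28 and K>R 1-9 alone, so that a gene this low in WT had to be higher there to be a member, and nothing is read from the difference.

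The size of the ABA response was compared between each mutant and WT through an interaction term. No member and 0% of all genes were called for Delta28, K>R 1-9 or K>R 3 by the edgeR quasi-likelihood F test (Benjamini-Hochberg adjustment), and DESeq2 called 0 members in each. At an unadjusted p below 0.05 there were 3, 4 and 2 members, against 3.21%, 3.29% and 3.69% of all genes. The ratios that chose the genes enter this comparison, and requiring a deep fall in every genotype limits how far the responses of members can differ.

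To see how the fall carries over to libraries that did not choose the genes, the rule was applied to 3 genotypes at a time and the genes were then measured in the genotype left out. Of 214 genes chosen without WT, 139 also had a ratio of at most 0.4 in WT (65.0%), with a median WT ratio of 0.358. Of 171 genes chosen without Delta28, 139 met it in Delta28 (81.3%, median ratio 0.278), of 165 chosen without K>R 1-9, 138 met it there (83.6%, 0.271), and of 183 chosen without K>R 3, 140 met it there (76.5%, 0.269). The log2 fold change in the genotype left out was negative for 212 of 214, 171 of 171, 165 of 165 and 180 of 183 genes. In the edgeR quasi-likelihood F test (Benjamini-Hochberg adjustment) 62 of the 214 were called lower in WT (29.0%), 95 of 171 in Delta28 (55.6%), 83 of 165 in K>R 1-9 (50.3%) and 82 of 183 in K>R 3 (44.8%), where 2.27%, 7.33%, 4.67% and 6.49% of all genes at the same level minimum were, and none was called higher. The WT count was 23 without the second mock library of both WT and K>R 3, 18 without WT mock replicate 2, 26 without WT mock replicate 3, 18 without WT ABA replicate 1 and 8 without WT ABA replicate 2. The Delta28 count was 39, 45 and 37 without mock replicate 1, ABA replicate 1 and ABA replicate 2. The K>R 1-9 count was 30, 29, 40 and 38 without mock replicate 2 and ABA replicates 1, 2 and 3, and the K>R 3 count was 29 and 43 without mock replicate 1 and ABA replicate 2.

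**Figure D5:**
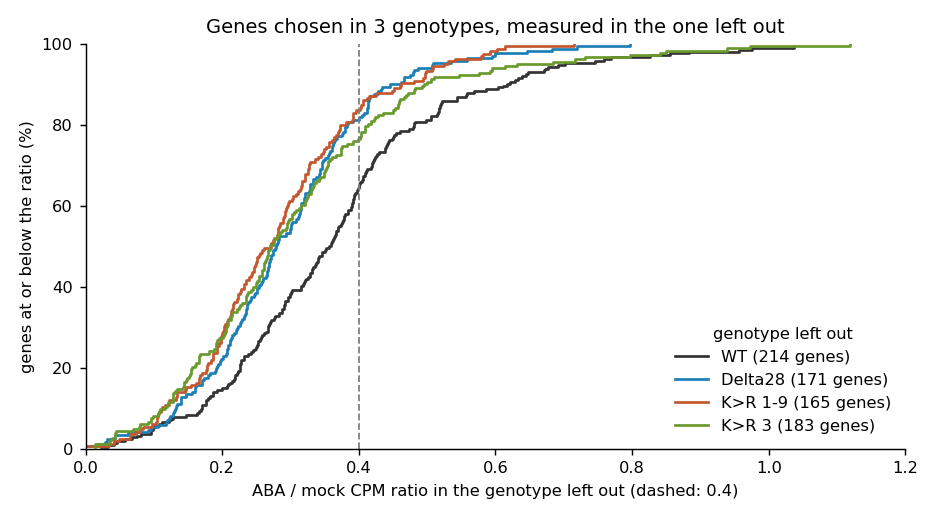
Share of genes (%) at or below each ABA to mock ratio in the genotype that was left out when the genes were chosen, with 1 line per genotype and the ratio of 0.4 dashed. At 0.4 the WT line stands at 65.0% and the others at 76.5% to 83.6%, and 1 gene without any count in WT mock leaves is not drawn.

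Genes that met the rule in 3 genotypes and missed it widely in the other are the nearest to a genotype-limited fall, and they were selected on that difference. TRY, a regulator of trichome spacing, had ratios of 0.329, 0.386 and 0.370 in WT, Delta28 and K>R 1-9 and 0.973 in K>R 3, with 12.7, 11.7 and 13.8 CPM in K>R 3 mock and 7.75, 1.37 and 28.0 CPM in K>R 3 ABA leaves. PAL1, a phenylalanine ammonia-lyase, had a ratio of 0.714 in K>R 1-9 and 0.0605 in WT, with 6.07, 10.5 and 2.19 CPM in K>R 1-9 mock and 1.07, 1.83 and 10.5 CPM in K>R 1-9 ABA leaves. The libraries of both overlapped. AT3G12320 had a ratio of 0.683 in Delta28 and 0.208 in WT, with 46.4, 53.7 and 39.2 CPM in Delta28 mock and 24.9, 46.4 and 23.9 CPM in Delta28 ABA leaves, against 61.4, 208 and 83.6 and 18.5, 31.0 and 23.9 CPM in WT. The Delta28 libraries overlapped and the WT libraries did not. AT1G65486, uncharacterised, had a ratio of 1.04 in WT and at most 0.231 elsewhere, with 15.8, 12.1 and 19.9 CPM in WT mock and 2.82, 2.11 and 44.7 CPM in WT ABA leaves. WT ABA replicate 3 alone set that ratio, the other WT ABA libraries being below all WT mock libraries. LpxC3, which has near-identical tandem copies that may exchange reads, was listed at 0 in the WT mock libraries and in the ABA libraries of the mutants, and at 0, 0 and 38.6 CPM in the WT ABA libraries.

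The threshold of 0.4 fell in a continuous distribution. Just inside were AT1G29450, an auxin-responsive SAUR gene, at 0.3996 in WT, AT1G64510 at 0.399 in K>R 3 and CPN60A at 0.398 in WT. Just outside were AT1G12244 at 0.4005 in Delta28 and LHCB4.2, a minor antenna protein, at 0.4005 and AT2G34620 at 0.402 in WT. A threshold of 0.3 gave 53 genes and one of 0.5 gave 344.

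Gene lists, which do not hold every gene of a pathway, show how many of the listed genes are members. Of 30 photosystem and antenna genes tested, 4 were members (PSAF, LHCB2.2, LHCB2.3 and LHCB3), and the edgeR quasi-likelihood F test (Benjamini-Hochberg adjustment) called 2 lower in WT, 6 in Delta28, 8 in K>R 1-9 and 4 in K>R 3 and 0 higher, with median log2 changes of -1.02, -1.05, -1.21 and -0.81. Of 17 Rubisco and Calvin cycle genes 6 were members, and 4, 4, 5 and 3 were called lower, with medians of -1.34, -1.08, -1.49 and -0.95. Of 23 phenylpropanoid and flavonoid genes 3 were members, 3, 2, 2 and 5 were called lower and 0, 1, 1 and 1 higher, with medians of -0.55, -0.73, 0.06 and -0.997. The shares of all genes called lower are those given above for each genotype. The brassinosteroid and helix-loop-helix list (27 tested) gave 2 members, and the cell wall growth (22) and gibberellin (16) lists 1 each. None was among the listed 32 auxin, 14 cytokinin, 23 glucosinolate, 26 wax and cutin, 19 aquaporin, 23 nitrogen, 32 salicylate and immunity, 18 cell division and 13 reference genes. The set is not without such genes, because some members are missing from the lists. These are the SAUR gene AT1G29450, the auxin efflux carrier family gene AT1G76530, ESM1 of glucosinolate breakdown and CRF11, whose relatives are in the cytokinin list. The wax and cutin list had median log2 changes of 0.78, 0.79, 0.83 and 0.12 in WT, Delta28, K>R 1-9 and K>R 3. The medians of all genes tested lay between -0.05 and 0.00.

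Annotated features of the members are given beside those of genes at the level minimum, without a test. The median number of exons was 4 in the members, against 6 over genes at the level minimum. On the minus strand lie 55 of the 139 members (39.6%), against 30.7%. For minus-strand genes the deposited models lack the exon that holds the 3′ end, so their levels rest on part of their reads. An overlapping gene on the other strand was annotated for 35 members (25.2%, against 29.6%). Chromosomes 1 to 5 held 41, 14, 28, 26 and 30 members.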

How the data were processed

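RNA from leaves of 24 samples entered QuantSeq libraries, which count 3′ ends of polyadenylated transcripts, per the labels' protocols. Trim Galore, STAR and RSEM were used per the submitters' processing notes; for their versions, the genome build and the annotation, nothing is given in the sources used here. An expected count per gene was deposited by the authors, per the file headers, an RSEM estimate of reads that need not be whole. Totals were 1565518 to 15086279 per library, with a median of 7142427, and low genes rest on few reads. Lengths of 11675 genes with 1 transcript were compared with TAIR10.1 RefSeq, which served for names, strand and gene order alone, and in 11594 (99.3%) the exon of lowest coordinate was missing. None of 5293 single-exon coding genes was in the files, and minus-strand genes held 12.6% to 17.6% of counts. The 46 IDs with the prefix PEK_ held at most 0.0346% of counts in any library.

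CPM for the rule and for all printed levels was computed from the deposited expected counts and the file sum. For tests the counts were rounded to whole numbers, filtered with filterByExpr by group (13874 genes), scaled with TMM (0.886 to 1.135) and fitted for all 8 groups in 1 model with edgeR 4.0.16 (glmQLFit, glmQLFTest, 16 residual degrees of freedom) in R 4.3.3. P-values were adjusted by Benjamini-Hochberg over all genes tested, with a threshold of 0.05. DESeq2 1.42.0 was an alternative, with other scaling, no filter, plus-strand genes alone, the compared groups alone, a replicate block and each library left out; 2 alternatives were added after seeing the data. The fitting code was run on simulated counts with known changes in WT ABA leaves. These were drawn without outlying libraries, and no result here rests on them. The members, gene lists and tests were chosen with earlier results of these data known, and roles were assigned after the values were known. Genes named were the 8 most abundant members, the 8 with the lowest largest ratio, called members, those nearest the threshold, up to 4 members of each list and, per genotype, the 3 genes that missed the rule most in that genotype alone. Other genes named as examples of a role were chosen after their values were seen.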

Additional observations from a re-analysis of the deposited data

How the results depend on the processing

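The rule gave 53 genes at a ratio of 0.3, 344 at 0.5 and 103 to 178 with single libraries left out. For ABA against mock in WT, the count of 57 members called lower was 33 on plus-strand genes alone, 91 in DESeq2, 90 with the compared groups alone, 22 without the second mock library of both WT and K>R 3, and 8 to 72 with single libraries left out. These ranges were 36 to 100 in Delta28, 29 to 95 in K>R 1-9 and 30 to 92 in K>R 3, where the groups alone gave 29. For genes chosen without WT, the count of 62 was 39 on plus-strand genes, 107 in DESeq2, 108 with the groups alone, 23 without both libraries and 8 to 80 with single libraries left out. The ranges for the other genotypes left out were 37 to 105 in Delta28, 29 to 94 in K>R 1-9 and 29 to 92 in K>R 3, where the groups alone gave 29. Against WT, DESeq2 called 1 member in Delta28 mock and 2 in Delta28 ABA leaves, 5 and 4 in K>R 1-9, and 2 and 3 in K>R 3, of which 1, 1, 2, 1, 0 and 0 were higher than WT, with 87, 67, 319, 177, 70 and 34 of all genes called. Single libraries left out gave 0 to 1 in Delta28 ABA, 0 to 2 in K>R 1-9 mock, 0 to 1 in K>R 1-9 ABA and 0 to 13 in K>R 3 ABA leaves. The single K>R 1-9 mock call, BBX16, became 0 with the groups alone and without both libraries.

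Over all genes tested, same-numbered samples showed little in common. Over 84 such pairs the correlation of deviations ran from -0.238 to 0.274, with a median of -0.008, and exceeded 0.1 in 16. For the members no such correlation is given, and only the order of their median levels was looked at. In ABA leaves the median member level was highest in replicate 3 of WT, Delta28, K>R 1-9 and K>R 3 (48.3, 37.2, 17.0 and 20.0%). It was lowest in ABA replicate 2 of WT, Delta28 and K>R 3 (21.2, 14.6 and 10.3%), but in replicate 1 of K>R 1-9 (15.6%), where the ABA libraries differed little. In mock leaves the highest library was replicate 3 in WT, 1 in Delta28, 2 in K>R 1-9 and 1 in K>R 3. With the replicate block the K>R 1-9 mock count was 0 (BBX16, edgeR quasi-likelihood F test, adjusted p = 0.0511), and the member medians against WT kept their sign. Median member differences with single libraries left out ran from -0.37 to -0.017 in Delta28 mock, -0.59 to 0.22 in Delta28 ABA, -0.76 to -0.49 in K>R 1-9 mock, -1.12 to -0.36 in K>R 1-9 ABA, -1.02 to -0.57 in K>R 3 mock and -1.36 to -0.43 in K>R 3 ABA leaves. Only the Delta28 ABA median changed sign, at 0.22 without WT ABA replicate 3. Among named members, 1 value reversed, BEE1 in WT at 0.38 without WT mock replicate 3, within a range of -3.35 to 0.38 over single libraries left out; 268 passed the threshold no longer, 137 passed it newly and 3299 kept direction and side. The causes were not tested. With 3 libraries a group and totals down to 1565518 counts, differences in genes near 5 CPM were poorly resolved, and minus-strand levels rest on part of the reads.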
